A study of Mus musculus with 8 samples.

Results

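Hepcidin, the peptide hormone of the liver that restrains iron entry into plasma, was followed with the genes that sense, take up, export and store iron in mouse liver. The 10 genes were picked by name (Hamp1, Hamp2, Bmp6, Hfe2, Hfe, Tfr2, Tfrc, Slc40a1, Fth1 and Ftl1), and 12 probes on the array carried these names among 41174 probes. All 10 genes were among the 17050 genes tested, and the brightest probe of each was well above background on all 8 arrays. The study set KKAy mice against C57BL/6J mice at 11 and at 4 weeks of age, with total liver RNA of each of the 4 groups on 2 Agilent arrays read in a single colour. KKAy mice carry the yellow obese allele of the agouti gene on the KK background, and the labels give their disease state as diabetes. C57BL/6J is an inbred strain of another background, labelled normal, so that background, agouti allele and diabetes cannot be told apart here. All groups ate chow and were fasted for 13.5 hours before sampling. The labels number the samples within a group without saying that they came from separate animals, so the p-values measure only how far these samples varied, and that variation may be technical.

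Hepcidin is secreted mainly by hepatocytes and makes the iron exporter ferroportin (Slc40a1) leave the cell surface, which holds iron inside macrophages, hepatocytes and gut cells. Its transcription is driven by bone morphogenetic proteins from sinusoidal endothelial cells acting through hemojuvelin (Hfe2) and SMAD proteins, by the transferrin sensors Hfe and transferrin receptor 2, and by interleukin-6 through STAT3. Iron itself acts on the mRNAs of transferrin receptor 1 (Tfrc) and the ferritins through iron regulatory proteins, and for the ferritins this control is exerted on translation more than on mRNA level. Mice carry a pair of hepcidin genes side by side, and in mouse liver Hamp2 is known as the more female-biased of them.

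The proximal promoter of each hepcidin gene is given as reference sequence, and the promoters of the KKAy mice were not looked at. Whether these sequences bear on the levels given below was not tested. Both sequences come from RefSeq on GRCm38.p6, lie on the minus strand and cover the 150 bases before the annotated start, at chr7:30944030-30944179 for Hamp1 and at chr7:30924182-30924331 for Hamp2. Capitals mark the core GGCGCC of the bone morphogenetic protein response element, or its aligned counterpart, and the STAT3 motif TTCTTGGAA.
Hamp1: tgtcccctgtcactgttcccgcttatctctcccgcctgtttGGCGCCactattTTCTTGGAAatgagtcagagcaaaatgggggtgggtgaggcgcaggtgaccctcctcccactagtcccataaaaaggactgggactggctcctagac
Hamp2: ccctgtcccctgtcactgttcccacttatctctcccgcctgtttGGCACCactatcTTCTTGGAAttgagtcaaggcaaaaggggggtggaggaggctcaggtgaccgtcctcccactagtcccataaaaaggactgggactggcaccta
In Hamp1 the core began 109 bases before the start and the STAT3 motif 97 bases before it, without overlap. In Hamp2 the STAT3 motif was the same, 94 bases before the start, and the counterpart of the core held the substitution G4A, counted from 1 at the 5′ end of the core with the base of Hamp1 given before that of Hamp2. The stretches printed were identical at 135 of the 147 bases they share in the alignment (91.8%). The core, which reads the same on both strands, occurred in 2302 of 32851 promoter windows of 150 bases (7.01%), and the STAT3 motif, on either strand, in 60 (0.183%). Of the 12 windows found for 8 of the 10 genes, the core occurred in 1 window of Hamp1 and in 1 of Tfrc, and the STAT3 motif only in the windows of Hamp1 and Hamp2. Slc40a1 and Hfe2 had no entry in the promoter table.

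Values are log2 signals relative to the 75th percentile of the same array, so that 0 is the level of the spot at that percentile, and they were set side by side only within a probe. The 75th percentile itself lay between 491.6 and 1241 intensity units, 56.3 to 66.7% of spots were well above background and 0 spots were saturated. Each slide held a single age, and the effects of slide and age cannot be told apart. KKAy samples always lay at positions 3 and 4 of a slide and C57BL/6J samples at 1 and 2, so strain and position cannot be told apart either. Livers were labelled as such and expressed hepatocyte genes throughout. Of 14 hepatocyte markers 13, albumin among them, were on the array, and all of these passed the filter. Their summed levels were 2659 to 3145 in KKAy and 3006 to 3064 in C57BL/6J at 11 weeks. At 4 weeks the sums were 2309 to 2848 in KKAy and 2102 to 2856 in C57BL/6J. The sex of the mice is not in the labels. The Y-linked genes Ddx3y, Eif2s3y and Kdm5d were above background on all 8 arrays, and the 4 probes of Xist on 0 arrays.

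Differences were tested with limma over all genes, and a gene was called at a Benjamini-Hochberg adjusted p under 0.05. Between KKAy and C57BL/6J livers at 11 weeks, 5 of the 10 genes were called, 2 higher and 3 lower in KKAy, beside 21.5% of all genes tested (9.81% higher, 11.7% lower). At 4 weeks 4 of the 10 were called, 0 higher and 4 lower in KKAy, beside 15.4% of all genes (6.5% higher, 8.92% lower). Between 11 and 4 weeks in KKAy, 6 of the 10 were called, 3 higher and 3 lower at 11 weeks, beside 18.5% of all genes (8.01% higher, 10.5% lower). In C57BL/6J 2 of the 10 were called, 1 higher and 1 lower at 11 weeks, beside 8.14% of all genes (1.99% higher, 6.15% lower). The strain difference itself changed with age for 3 of the 10, upward for 2 and downward for 1, beside 3.82% of all genes (2.02% upward, 1.81% downward). The arrays of the strains did not overlap for 7 of the 10 genes at 11 weeks (57.1% of all genes) and for 7 at 4 weeks (48.6%), and those of the ages for 8 in KKAy (51.8%) and 7 in C57BL/6J (50.1%). The medians over the 10 genes were 0.08 and 0.01 for KKAy minus C57BL/6J at 11 and 4 weeks, and 0.33 and 0.14 for 11 minus 4 weeks in KKAy and C57BL/6J. Over all genes the same medians were -0.01, 0.02, 0.03 and 0.07. With arrays scaled to 7 spike-in probes instead, the median of all genes moved to 0.13 and 0.37 for the strain differences at 11 and 4 weeks and to -0.19 for age in KKAy. That scaling raised the share of higher genes among all strain calls to 60.7% at 11 weeks and 75.8% at 4 weeks, against 45.6% and 42.1% with the 75th percentile. It lowered the share among age calls in KKAy to 19.4%, against 43.2%, and the upward share among calls for the change of the strain difference to 36.1%, against 52.8%.

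**Figure D1:**
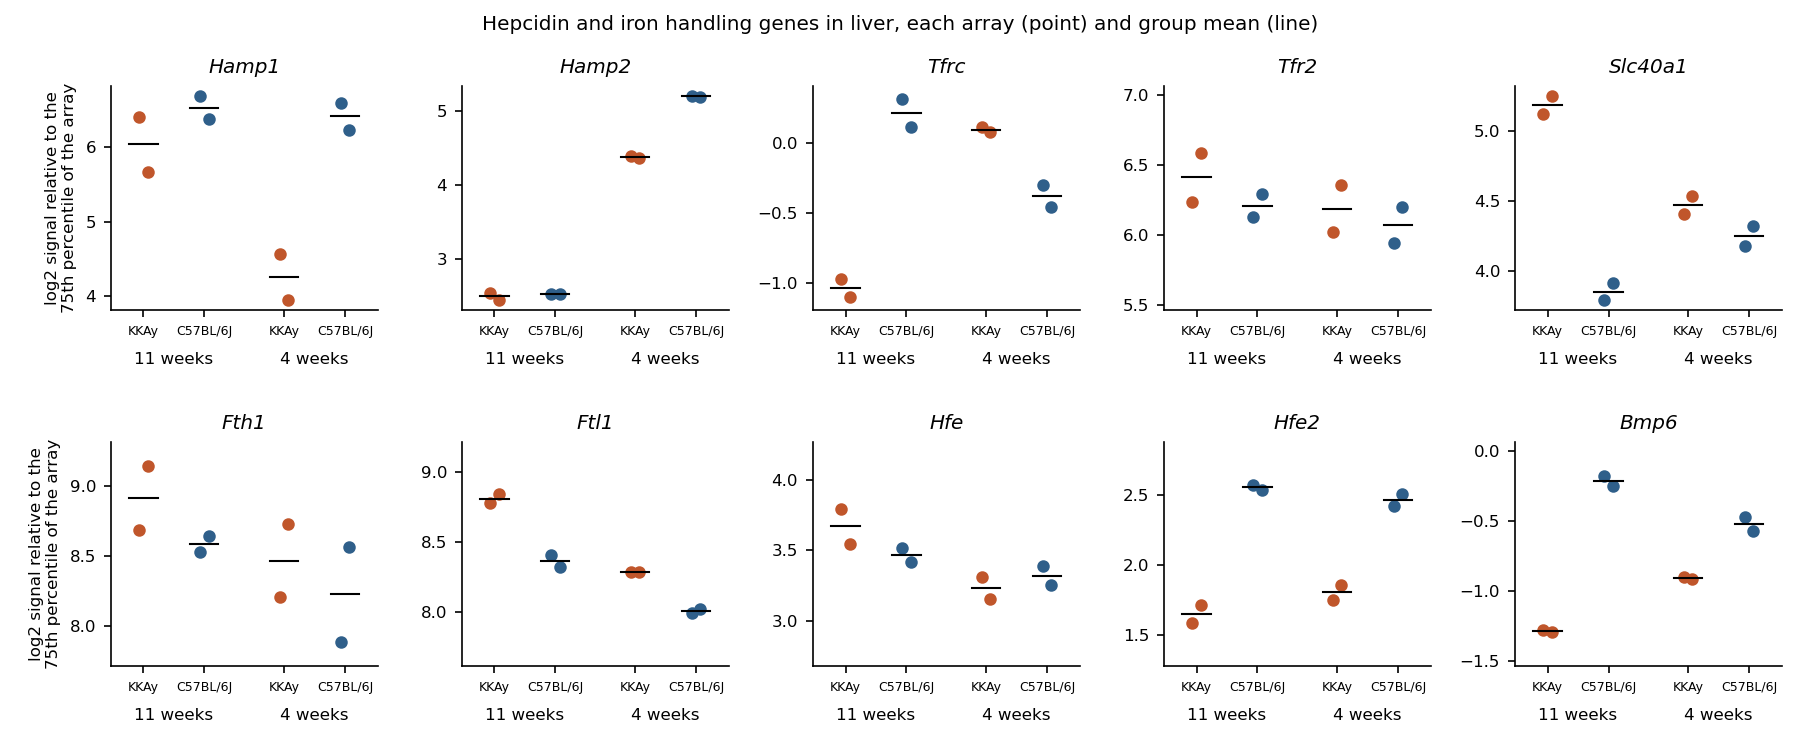
Log2 signal of the 10 genes relative to the 75th percentile of the array (vertical axis), with KKAy (orange) left of C57BL/6J (blue) at 11 weeks and at 4 weeks, 1 point for each of the 8 arrays and a line at each group mean. Both KKAy livers at 4 weeks lay under all others for Hamp1, and for Hamp2 the 11-week livers of both strains lay together near 2.5.

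Hamp1, which encodes the circulating hepcidin hormone, was far lower in young KKAy livers than in any other group. Its probe lies on the minus strand of chr7:30651231-30651290 (mm8, the build of the file annotation). At 11 weeks it stood at 6.41 and 5.67 in KKAy livers, against 6.69 and 6.38 in C57BL/6J livers. At 4 weeks it stood at 4.57 and 3.95 in KKAy livers, against 6.60 and 6.23 in C57BL/6J livers. Only the 4-week strains and the KKAy ages were thus apart on every array, while the strains overlapped at 11 weeks and the ages overlapped in C57BL/6J. The 4-week strain difference was -2.15 ± 0.32 (SE), which is 4.45-fold lower in KKAy (adjusted p = 0.00851), and leaving out C57BL/6J replicate 1 of 4 weeks took the call away (-1.97, adjusted p = 0.0568). In KKAy, Hamp1 was 3.43-fold higher at 11 weeks than at 4 weeks (1.78 ± 0.32, adjusted p = 0.0163). At 11 weeks the strain difference was -0.49 ± 0.32 (adjusted p = 0.353), and in C57BL/6J the age difference was 0.12 ± 0.32 (adjusted p = 0.897). The change of the strain difference between the ages was 1.66 ± 0.46 (adjusted p = 0.127). The call for age in KKAy was lost without KKAy replicate 2 of 4 weeks (adjusted p = 0.0798) and without KKAy replicate 1 of 11 weeks (adjusted p = 0.0575), as well as under quantile normalization (1.58, adjusted p = 0.0591) and with the 4 KKAy arrays alone (adjusted p = 0.0846).

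Hamp2, the neighbouring gene for a hepcidin-like peptide, followed age in both strains. Its probe lies on the minus strand of chr7:30631261-30631320 (mm8). At 11 weeks it stood at 2.55 and 2.45 in KKAy livers, against 2.53 and 2.53 in C57BL/6J livers. Its 4-week levels were 4.40 and 4.36 in KKAy livers, against 5.20 and 5.19 in C57BL/6J livers. The groups fell in 3 steps, with 4-week C57BL/6J highest, 4-week KKAy next and the 11-week strains overlapping at the bottom. It fell with age by 2.66 ± 0.09 in C57BL/6J (adjusted p = 0.00025, 6.34-fold) and by 1.88 ± 0.09 in KKAy (adjusted p = 0.000278, 3.68-fold), the 2 contrasts sharing no array. At 4 weeks it was 1.76-fold lower in KKAy (-0.82 ± 0.09, adjusted p = 0.00344), a call lost when arrays were scaled to the spike-in probes (-0.47, adjusted p = 0.103), and at 11 weeks the difference was -0.03 ± 0.09 (adjusted p = 0.865). The strain difference changed by 0.78 ± 0.13 between the ages (adjusted p = 0.0379), but in 8 of 8 fits that left out 1 array this call was lost (adjusted p = 0.0912 to 0.191), as it was in 4 of the 8 other alternatives (adjusted p = 0.0635 to 0.35).

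Sex-biased liver genes moved beside Hamp2, and their part in its change was not tested. Of 24 tested genes known as female-biased in mouse liver, 0 rose and 19 fell with age in KKAy (median -2.19), and 0 rose and 11 fell in C57BL/6J (median -0.63). Their summed level was 921 to 1085 in KKAy and 960 to 974 in C57BL/6J at 11 weeks. At 4 weeks it was 1088 to 1310 in KKAy and 808 to 1050 in C57BL/6J, so the ages overlapped in C57BL/6J. Of 22 male-biased genes, 15 rose and 0 fell in KKAy (median 0.95), and 5 rose and 0 fell in C57BL/6J (median 0.40). The same 24 female-biased genes were called higher for 2 and lower for 13 in KKAy at 11 weeks, and higher for 7 and lower for 2 at 4 weeks, where Hamp2 itself was lower in KKAy. Examples are Cyp2b9, a female-biased cytochrome P450, at -3.54 between the strains at 11 weeks (adjusted p = 0.000114) and 0.97 at 4 weeks (adjusted p = 0.00842), and Elovl3, a male-biased fatty acid elongase, at 4.73 for age in KKAy (adjusted p = 0.00024).

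**Figure D2:**
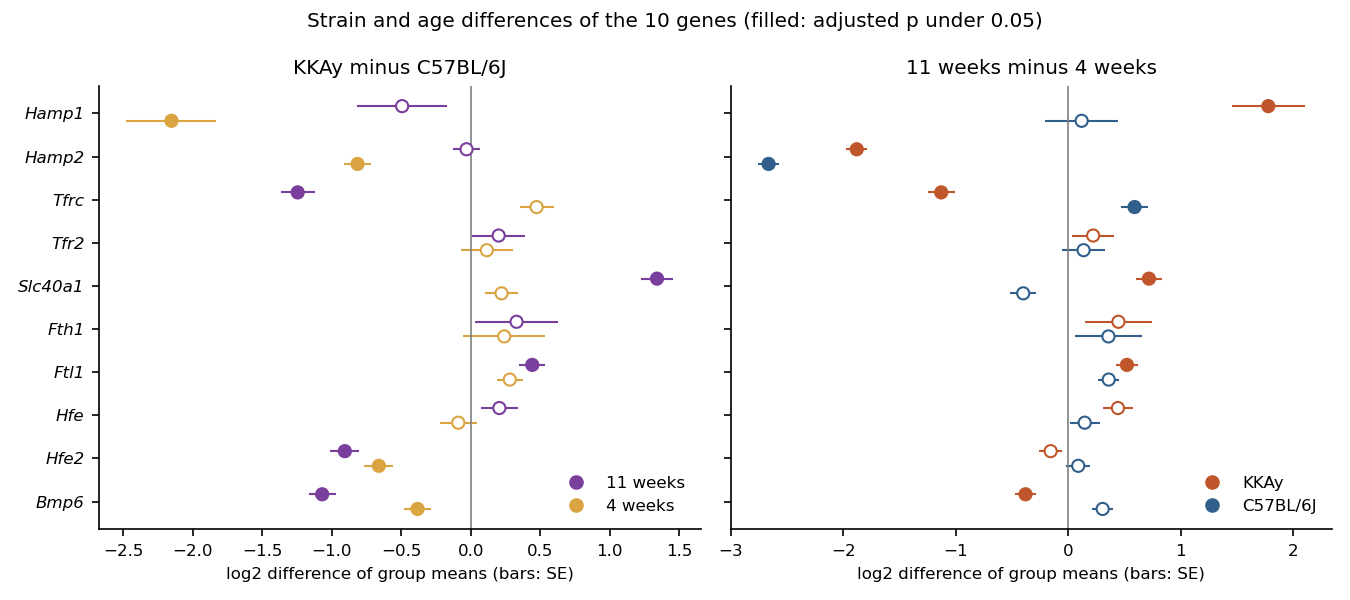
Log2 differences of group means for the 10 genes (horizontal axis, bars of 1 SE), KKAy minus C57BL/6J at 11 and 4 weeks on the left and 11 minus 4 weeks in each strain on the right, filled where the adjusted p is under 0.05. Hamp1 at 4 weeks lies farthest left among strain differences at -2.15, and Hamp2 at -1.88 and -2.66 among age differences.

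The ligand Bmp6 and its co-receptor Hfe2 were both lower in KKAy livers at 11 weeks. Bmp6 encodes a bone morphogenetic protein that induces hepcidin when liver iron is high, and its probe lies on the plus strand of chr13:38507076-38507135 (mm8). At 11 weeks it stood at -1.28 and -1.30 in KKAy livers, against -0.18 and -0.26 in C57BL/6J livers. Levels at 4 weeks were -0.90 and -0.92 in KKAy livers, against -0.48 and -0.57 in C57BL/6J livers. All 4 groups were apart from each other, with the 11-week strains at the ends of the range. The strain difference was -1.07 ± 0.10 at 11 weeks (adjusted p = 0.00115, 2.10-fold lower in KKAy) and -0.38 ± 0.10 at 4 weeks (adjusted p = 0.0484). With age it fell by 0.38 ± 0.10 in KKAy (adjusted p = 0.0442), and in C57BL/6J the age difference was 0.31 ± 0.10 (adjusted p = 0.132). The calls at 4 weeks and for age in KKAy were each lost in 8 of 8 fits without 1 array (adjusted p = 0.0773 to 0.233 and 0.0802 to 0.173), and scaling to the spike-in probes brought the 4-week difference to -0.04 (adjusted p = 0.89). Of the 9 other alternatives, 5 lost the 4-week call (adjusted p = 0.0958 to 0.89) and 4 the age call (adjusted p = 0.0693 to 0.212).

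The dimmer probe of Bmp6, spanning an intron at chr13:38477222-38492365 (mm8), gave -4.23 and -4.56 in KKAy, against -3.07 and -3.07 in C57BL/6J, at 11 weeks. At 4 weeks it gave -3.76 and -3.61 in KKAy, against -3.63 and -3.62 in C57BL/6J. It was therefore lower in KKAy at 11 weeks (-1.33, adjusted p = 0.00202), like the brighter probe, while the strains overlapped at 4 weeks (adjusted p = 0.866). These values come from a limma fit over all 25320 probes kept, in which the brighter probe was not called at 4 weeks (adjusted p = 0.0525). Bmp6 is made mostly by sinusoidal endothelial cells, and in whole liver fewer cells of a type and less RNA per cell cannot be told apart. The summed level of 14 sinusoidal endothelial markers was 56.6 to 59.2 in KKAy and 52.2 to 55.2 in C57BL/6J at 11 weeks, and 81.9 to 88.9 in KKAy and 63.6 to 66.8 in C57BL/6J at 4 weeks. Without Clec4g, left out after the values were seen, it was 29.0 to 31.4 in KKAy and 32.6 to 34.7 in C57BL/6J at 11 weeks, and 46.5 to 52.0 in KKAy and 41.7 to 45.0 in C57BL/6J at 4 weeks, so the direction at 11 weeks rested on that gene. The median difference of the 14 genes was -0.13 at 11 weeks (0.01 with spike-in scaling) and 0.09 at 4 weeks, and their part in the Bmp6 difference was not tested. Of these 14, 1 was higher (Clec4g) and 2 lower (Lyve1 at -2.18 and Cdh5) in KKAy at 11 weeks, and 1 higher (Clec4g) and 1 lower (Cdh5) at 4 weeks.

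Hfe2 encodes hemojuvelin, the co-receptor that carries the bone morphogenetic signal in hepatocytes, and its probe lies on the plus strand of chr3:96613595-96613654 (mm8). It stood at 1.59 and 1.71 in KKAy livers, against 2.57 and 2.54 in C57BL/6J livers, at 11 weeks. Levels at 4 weeks were 1.75 and 1.86 in KKAy livers, against 2.43 and 2.51 in C57BL/6J livers. The 4 KKAy livers lay below the 4 C57BL/6J livers, while the ages lay close within each strain. It was 1.88-fold lower in KKAy at 11 weeks (-0.91 ± 0.10, adjusted p = 0.00274) and 1.58-fold lower at 4 weeks (-0.66 ± 0.10, adjusted p = 0.0104). The age differences were -0.16 ± 0.10 in KKAy (adjusted p = 0.374) and 0.09 ± 0.10 in C57BL/6J (adjusted p = 0.728). Of the 4-week arrays, leaving out C57BL/6J replicate 1 (adjusted p = 0.0524) or 2 (adjusted p = 0.0741), or KKAy replicate 1 (adjusted p = 0.0705), ended the 4-week call, as did scaling to the spike-in probes (-0.32, adjusted p = 0.229), no filter on dim probes (adjusted p = 0.0532) and the 4 arrays of that age alone (adjusted p = 0.0703).

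Hfe, the gene mutated in the common form of human hereditary haemochromatosis, gave different answers on its 2 probes. The brighter probe, on the minus strand of chr13:23711518-23711577 (mm8), stood at 3.80 and 3.55 in KKAy and 3.52 and 3.42 in C57BL/6J livers at 11 weeks, and at 3.31 and 3.15 in KKAy and 3.39 and 3.25 in C57BL/6J livers at 4 weeks. The strains were close at both ages, apart by a small margin at 11 weeks and overlapping at 4 weeks, with differences of 0.21 ± 0.13 (adjusted p = 0.349) and -0.09 ± 0.13 (adjusted p = 0.768). The other probe, at chr13:23710064-23710123 (mm8) and designed on a different transcript record of Hfe, was above background on 0 of 4 KKAy arrays and on 4 of 4 C57BL/6J arrays. It read -6.40 and -6.36 in KKAy and 0.33 and 0.34 in C57BL/6J livers at 11 weeks, and -7.07 and -6.31 in KKAy and -0.01 and -0.08 in C57BL/6J livers at 4 weeks. Against the lowest signal well above background, it read at least 45.7-fold lower in KKAy at 11 weeks and 38.4-fold lower at 4 weeks. The adjusted p was 7.96e-05 at 11 weeks and 0.000126 at 4 weeks, by the limma fit over all 25320 probes kept. The probe passed the filter only through its C57BL/6J arrays, so these p-values are no separate support for a strain difference. The sequence of this probe and its match to the KKAy genome could not be looked at. Whether its signal follows the level of Hfe RNA in KKAy was not tested. With the mean of both probes in place of the brighter, Hfe was called lower in KKAy at 11 weeks (-3.26, adjusted p = 9.97e-05), the opposite direction to the brighter probe.

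**Figure D3:**
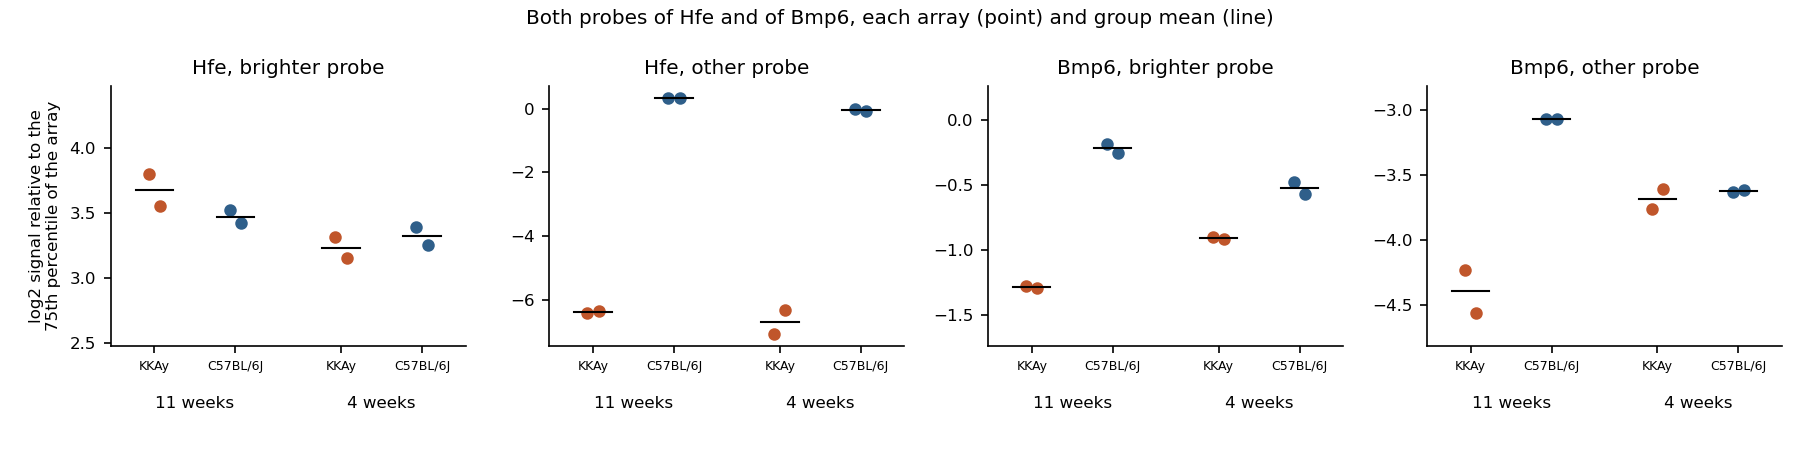
Log2 signal relative to the 75th percentile of the array (vertical axis) for the brighter and the other probe of Hfe and of Bmp6, KKAy (orange) left of C57BL/6J (blue) at each age, 1 point for each array and a line at each group mean. The other Hfe probe lies under -6 on all 4 KKAy arrays and near 0 on all 4 C57BL/6J arrays, and the Bmp6 probes share the lower 11-week level in KKAy.

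Tfr2, the hepatocyte sensor of iron-loaded transferrin (listed as Trfr2 in the files), was called in 0 of the 4 comparisons by limma. Its probe lies on the plus strand of chr5:137817152-137817211 (mm8). It stood at 6.24 and 6.58 in KKAy and 6.13 and 6.30 in C57BL/6J livers at 11 weeks, and at 6.02 and 6.36 in KKAy and 5.94 and 6.20 in C57BL/6J livers at 4 weeks. The groups overlapped in each of these comparisons, and the strain differences were 0.20 ± 0.19 at 11 weeks and 0.12 ± 0.19 at 4 weeks (adjusted p = 0.529 and 0.791).

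Tfrc, which encodes the transferrin receptor that brings iron into cells, moved in opposite directions with age in the strains. Its probe, on the plus strand of chr16:32551916-32551975 (mm8), was spotted 10 times on each array. At 11 weeks it stood at -0.97 and -1.10 in KKAy livers, against 0.31 and 0.12 in C57BL/6J livers. Its 4-week levels were 0.12 and 0.08 in KKAy livers, against -0.30 and -0.45 in C57BL/6J livers. The 11-week KKAy livers were the lowest, 4-week C57BL/6J next, and the other groups, 4-week KKAy and 11-week C57BL/6J, lay close together. At 11 weeks it was 2.37-fold lower in KKAy (-1.25 ± 0.12, adjusted p = 0.00153), and at 4 weeks the difference was 0.47 ± 0.12 (adjusted p = 0.0534). With age it fell by 1.13 ± 0.12 in KKAy (adjusted p = 0.00307, 2.19-fold) and rose by 0.59 ± 0.12 in C57BL/6J (adjusted p = 0.0413). The rise was lost in 8 of 8 fits without 1 array (adjusted p = 0.0613 to 0.264) and in 4 of the 9 other alternatives (adjusted p = 0.0515 to 0.182). The strain difference changed by -1.72 ± 0.17 between the ages (adjusted p = 0.00911), a call that 14 of 16 other fits made, the exceptions leaving out C57BL/6J replicate 1 (adjusted p = 0.0595) or 2 (adjusted p = 0.0553) of 11 weeks.

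Dividing and erythroid cells carry much transferrin receptor, and the level of their markers was set beside it. Summed over 15 cell division markers, the level was 11.1 to 11.9 in KKAy and 9.80 to 11.2 in C57BL/6J at 11 weeks, and 22.4 to 26.7 in KKAy and 21.4 to 25.5 in C57BL/6J at 4 weeks. It was lower at 11 weeks in both strains, with 13 of 15 genes lower in KKAy and 11 of 15 in C57BL/6J, whereas Tfrc was lower at 11 weeks in KKAy and higher in C57BL/6J. Of 17 erythroid markers 16 were on the array and 7 passed the filter. The summed levels of these 7 were 92.0 to 104 in KKAy and 56.0 to 60.4 in C57BL/6J at 11 weeks. At 4 weeks the sums were 159 to 178 in KKAy and 97.2 to 110 in C57BL/6J. Of the 7, 2 were higher and 0 lower in KKAy at 11 weeks, and 3 higher and 0 lower at 4 weeks. Alas2, the erythroid enzyme of heme synthesis, differed by 1.74 at 11 weeks (adjusted p = 0.00121) and Hba-a1, an alpha globin gene, by 0.16 (adjusted p = 0.417). Without Alas2, left out after the values were seen, the sum was 47.0 to 51.6 in KKAy and 42.5 to 44.8 in C57BL/6J at 11 weeks, and 146 to 163 in KKAy and 87.1 to 98.2 in C57BL/6J at 4 weeks. The part of these cells in the level of Tfrc was not tested. The erythroid genes not among the 7 tested include Epb42 and Rhag.

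Slc40a1 encodes ferroportin, the iron exporter that hepcidin removes from the cell surface, and it was higher in older KKAy livers. Its probe lies on the minus strand of chr1:45852956-45853015 (mm8). At 11 weeks it stood at 5.13 and 5.25 in KKAy livers, against 3.79 and 3.91 in C57BL/6J livers. At 4 weeks it stood at 4.41 and 4.54 in KKAy livers, against 4.18 and 4.32 in C57BL/6J livers. The order was 11-week KKAy, 4-week KKAy, 4-week C57BL/6J and 11-week C57BL/6J, with the middle groups separated by less than their own spread. It was 2.53-fold higher in KKAy at 11 weeks (1.34 ± 0.12, adjusted p = 0.00102), and at 4 weeks the difference was 0.22 ± 0.12 (adjusted p = 0.306). In KKAy it was 1.65-fold higher at 11 than at 4 weeks (0.72 ± 0.12, adjusted p = 0.0113), and in C57BL/6J the age difference was -0.40 ± 0.12 (adjusted p = 0.11). The strain difference changed by 1.12 ± 0.16 (adjusted p = 0.0254). That last call was lost in 8 of 8 fits without 1 array (adjusted p = 0.063 to 0.144) and in 2 of the 8 other alternatives (adjusted p = 0.122 and 0.127). The age call in KKAy was lost without KKAy replicate 1 of 4 weeks (adjusted p = 0.0709) or KKAy replicate 2 of 11 weeks (adjusted p = 0.0551), as well as under spike-in scaling (0.50, adjusted p = 0.0988), without a filter on dim probes (adjusted p = 0.0522) or with the 4 KKAy arrays alone (adjusted p = 0.0924).

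Ferroportin is abundant in Kupffer cells, the resident macrophages of the liver. The summed level of 14 Kupffer cell and macrophage markers was 46.4 to 49.0 in KKAy and 77.9 to 83.7 in C57BL/6J at 11 weeks, and 75.1 to 84.2 in KKAy and 183 to 213 in C57BL/6J at 4 weeks. The sum was lower in KKAy at both ages, while Slc40a1 was called higher in KKAy at 11 weeks and was not called at 4 weeks. The part of these cells in the level of Slc40a1 was not tested. Of the 14 genes, 0 were higher and 8 lower in KKAy at 11 weeks, and 0 higher and 12 lower at 4 weeks, among them Clec4f, a C-type lectin of Kupffer cells (-0.69, adjusted p = 0.0105 and -1.34, adjusted p = 0.00133).

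**Figure D4:**
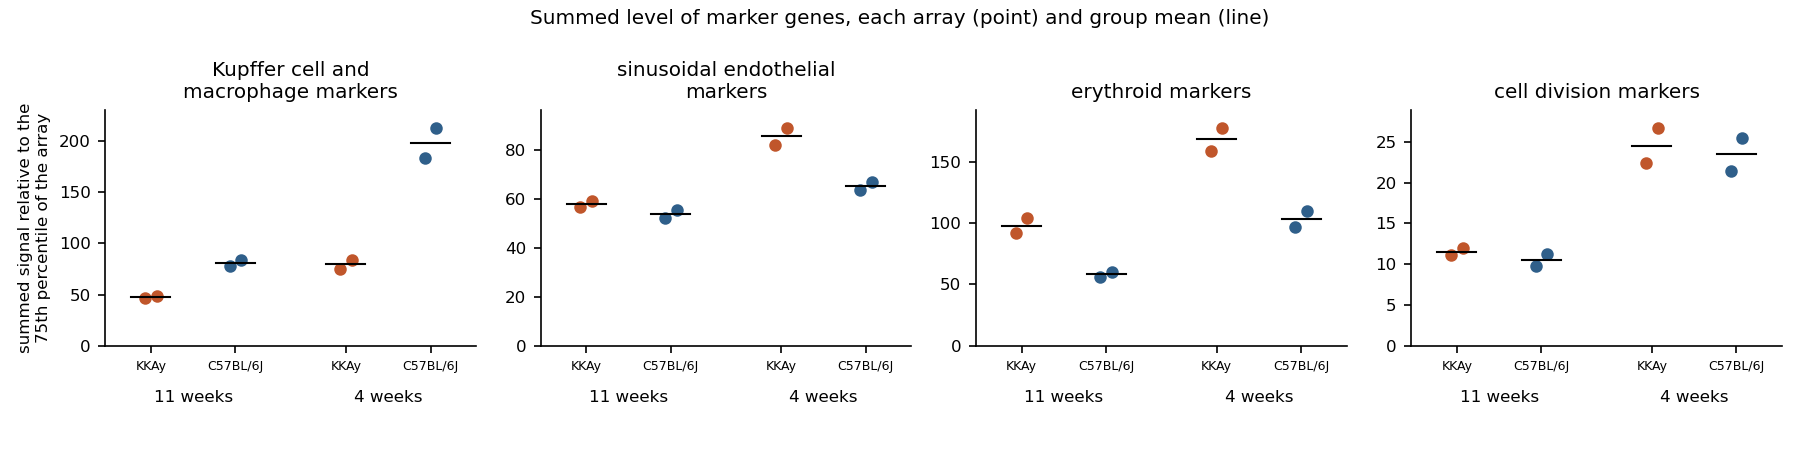
Summed signal relative to the 75th percentile of the array (linear vertical axis from 0) for markers of Kupffer cells and macrophages, sinusoidal endothelium, erythroid cells and cell division, KKAy (orange) left of C57BL/6J (blue) at each age, 1 point for each array and a line at each group mean. The Kupffer sum is lower in KKAy at both ages and the erythroid sum higher, at 11 weeks by less without Alas2.

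The ferritin chains differed in how far their arrays agreed. Ftl1 encodes the light chain, which helps to mineralise stored iron, and its probe lies on the minus strand of chr7:45327649-45327708 (mm8). It stood at 8.78 and 8.84 in KKAy and 8.41 and 8.33 in C57BL/6J livers at 11 weeks, and at 8.28 and 8.29 in KKAy and 7.99 and 8.02 in C57BL/6J livers at 4 weeks. All 4 groups were apart, and 4-week KKAy and 11-week C57BL/6J lay closest to each other. It was 1.36-fold higher in KKAy at 11 weeks (0.44 ± 0.09, adjusted p = 0.0231) and 1.44-fold higher at 11 than at 4 weeks in KKAy (0.52 ± 0.09, adjusted p = 0.0161). The 4-week strain difference was 0.28 ± 0.09 (adjusted p = 0.117) and the age difference in C57BL/6J was 0.36 ± 0.09 (adjusted p = 0.0818). The strain call at 11 weeks was lost in 8 of 8 fits without 1 array (adjusted p = 0.0525 to 0.157), under quantile normalization (0.28, adjusted p = 0.404), without a filter on dim probes (adjusted p = 0.111), with the 4 arrays of that age alone (adjusted p = 0.117) and under spike-in scaling (0.58, adjusted p = 0.0608). The age call in KKAy was lost without any 1 of the 4 KKAy arrays (adjusted p = 0.0551 to 0.0867) and under the same alternatives: quantile normalization (0.09, adjusted p = 0.819), no filter (adjusted p = 0.0841), 4 arrays alone (adjusted p = 0.133) and spike-in scaling (0.31, adjusted p = 0.307). A probe named for the near-identical copy Ftl2 read 8.78 and 8.93 in KKAy and 8.48 and 8.48 in C57BL/6J at 11 weeks; cross-hybridisation between the copies was not tested.

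Fth1 encodes the heavy chain, which oxidises iron for storage, and was called in 0 of the 4 comparisons by limma. Its probe lies on the plus strand of chr19:10052040-10052099 (mm8). It stood at 8.69 and 9.14 in KKAy and 8.53 and 8.64 in C57BL/6J livers at 11 weeks, and at 8.21 and 8.73 in KKAy and 7.89 and 8.57 in C57BL/6J livers at 4 weeks. In 3 of the 4 groups the samples lay farther apart than the strain means of that age, and the strains overlapped at 4 weeks. The strain differences were 0.33 ± 0.30 at 11 weeks and 0.24 ± 0.30 at 4 weeks (adjusted p = 0.508 and 0.712).

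Other genes of the pathway were described by 6 lists, each beside the share of all genes called, 21.5% at 11 weeks and 15.4% at 4 weeks. Of 27 tested regulators of hepcidin, 4 were higher and 1 lower in KKAy at 11 weeks (median 0.09), and 2 higher and 3 lower at 4 weeks (median 0.07). Gdf15, a stress-induced member of the transforming growth factor beta family, stood at 2.29 and 2.37 in KKAy, against 0.51 and 0.56 in C57BL/6J, at 11 weeks (1.79 ± 0.10, adjusted p = 0.000266). At 4 weeks it was lower in KKAy, at -0.57 and -0.44, against 0.07 and 0.02 in C57BL/6J (-0.55 ± 0.10, adjusted p = 0.0169). It rose with age by 2.83 ± 0.10 in KKAy (adjusted p = 0.000119) and by 0.49 ± 0.10 in C57BL/6J (adjusted p = 0.0413). Atoh8, a transcription factor induced by bone morphogenetic proteins, stood at -0.71 and -0.43 in KKAy, against 0.53 and 0.77 in C57BL/6J, at 4 weeks (-1.22 ± 0.16, adjusted p = 0.0048), and rose with age in KKAy by 1.25 ± 0.16 (adjusted p = 0.005). Its strain difference at 11 weeks was -0.20 (adjusted p = 0.442). Of the inhibitor of DNA binding family, induced by the same signal, Id3 was higher in KKAy at 11 weeks (0.83 ± 0.13, adjusted p = 0.00892) and at 4 weeks (0.66 ± 0.13, adjusted p = 0.0243). Id4 was also higher at 11 weeks (0.72 ± 0.09, adjusted p = 0.00404) and at 4 weeks (0.42 ± 0.09, adjusted p = 0.0323). Both thus differed in the opposite direction to Hamp1 and Atoh8 at 4 weeks. Id1 differed by 0.55 at 11 weeks (adjusted p = 0.238) and 0.03 at 4 weeks (adjusted p = 0.975). Id2 was higher in KKAy at 11 weeks (0.50 ± 0.13, adjusted p = 0.045) and rose with age by 0.89 ± 0.13 in KKAy (adjusted p = 0.00827) and by 0.60 ± 0.13 in C57BL/6J (adjusted p = 0.0479). Tmprss6, the protease that cleaves hemojuvelin, differed by 0.67 between the strains at 11 weeks (adjusted p = 0.09), and Smad7, an inhibitor within the pathway, rose with age in KKAy by 0.53 (adjusted p = 0.0397).

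Among acute phase and interleukin-6 genes, more were called higher than lower in KKAy at both ages. Of 24 genes, 11 were higher and 2 lower at 11 weeks (median 0.37), and 12 higher and 1 lower at 4 weeks (median 0.55). Apcs, the serum amyloid P component, was higher by 4.07 ± 0.19 at 11 weeks (adjusted p = 0.000149) and by 2.55 ± 0.19 at 4 weeks (adjusted p = 0.000785). Orm3, an orosomucoid, was higher by 2.26 ± 0.11 at 11 weeks (adjusted p = 0.000187) and by 2.74 ± 0.11 at 4 weeks (adjusted p = 0.000153). Saa3, a serum amyloid A, rose with age by 3.33 ± 0.19 in KKAy (adjusted p = 0.000432) and by 1.21 ± 0.19 in C57BL/6J (adjusted p = 0.0179). Socs3, the feedback inhibitor of STAT3 signalling, was higher by 0.91 at 11 weeks (adjusted p = 0.0347) and differed by 0.71 at 4 weeks (adjusted p = 0.0941). Lepr, the leptin receptor, which also signals through STAT3, was above background on 0 of 2 KKAy arrays at 11 weeks and on both at 4 weeks, at least 27.7-fold lower at 11 than at 4 weeks (adjusted p = 0.000432). It fell with age in C57BL/6J as well, by 2.22 ± 0.32 (adjusted p = 0.0118). Between the strains it was at least 17.2-fold lower in KKAy at 11 weeks (adjusted p = 0.000418) and lower at 4 weeks (-1.53 ± 0.32, adjusted p = 0.0255).

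Iron transport genes moved in both directions. Of 20 tested, 7 were higher and 4 lower in KKAy at 11 weeks (median 0.32), and 6 higher and 3 lower at 4 weeks (median 0.14). Scara5, a receptor that takes up ferritin, stood at 1.12 and 1.04 in KKAy, against -3.06 and -3.29 in C57BL/6J, at 4 weeks (4.26 ± 0.15, adjusted p = 0.00011), and rose with age in C57BL/6J by 2.16 ± 0.15 (adjusted p = 0.00127). In KKAy it fell with age by 0.85 (adjusted p = 0.0139), and at 11 weeks it was higher in KKAy by 1.25 (adjusted p = 0.0029). Lcn2, which binds iron-carrying bacterial siderophores and is also induced in the acute phase, was higher in KKAy by 4.61 at 11 weeks (adjusted p = 0.00453) and 3.12 at 4 weeks (adjusted p = 0.0216). Steap4, a ferric reductase, was higher at 11 weeks (2.47 ± 0.23, adjusted p = 0.00122) and at 4 weeks (1.06, adjusted p = 0.0288). Picalm, which helps endocytosis of the transferrin receptor, was lower at 11 weeks (-0.78 ± 0.09, adjusted p = 0.0027) and at 4 weeks (-0.38, adjusted p = 0.0422). Slc11a1, the iron transporter of macrophage phagosomes, was lower in KKAy at 4 weeks (-1.21 ± 0.15, adjusted p = 0.00464). It fell with age in C57BL/6J by 1.06 ± 0.15 (adjusted p = 0.0126). The Kupffer sums given above were also lower in these comparisons, and their part in the level of Slc11a1 was not tested. Slc11a2, the divalent metal transporter, was lower in KKAy at 11 weeks (-1.03, adjusted p = 0.0352) and at 4 weeks (-1.08, adjusted p = 0.0381), and Slc39a14, a transporter of iron not bound to transferrin, was higher at 4 weeks (0.72, adjusted p = 0.0337). Transferrin itself (Trf) differed by 0.36 at 11 weeks and 0.13 at 4 weeks (adjusted p = 0.226 and 0.751). With age in KKAy, the ferroxidase Heph fell by 1.32 ± 0.12 (adjusted p = 0.0017) and the reductase Steap2 by 1.40 ± 0.22 (adjusted p = 0.01). In C57BL/6J Heph also fell with age, by 0.78 (adjusted p = 0.0153), and Steap2 differed by -0.93 (adjusted p = 0.0602).

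Genes of iron sensing, ferritin turnover and iron-sulphur cluster assembly were mostly not called between the strains. Of 14 genes of sensing and turnover, 0 were higher and 2 lower in KKAy at 11 weeks (median -0.08, or 0.07 with spike-in scaling), and 0 higher and 1 lower at 4 weeks (median 0.04). Ncoa4, the receptor that delivers ferritin to autophagy, stood at 3.99 and 3.95 in KKAy, against 4.55 and 4.59 in C57BL/6J, at 11 weeks (-0.60 ± 0.09, adjusted p = 0.00826), and fell with age in KKAy by 0.57 ± 0.09 (adjusted p = 0.0126). The ubiquitin ligase Nedd4l was the other gene lower at 11 weeks (-1.08 ± 0.29, adjusted p = 0.046). Epas1, the hypoxia-inducible factor whose mRNA carries an iron-responsive element, was lower in KKAy at 4 weeks (-1.44 ± 0.23, adjusted p = 0.0108). The iron regulatory protein genes Aco1 and Ireb2 differed by 0.26 and 0.31 between the strains at 11 weeks (adjusted p = 0.177 and 0.0681), and Ireb2 rose with age in KKAy by 0.45 ± 0.09 (adjusted p = 0.0256). Of 22 genes of iron-sulphur cluster assembly, 1 was higher and 0 lower in KKAy at each age, Fdx1 at 11 weeks (0.65 ± 0.10, adjusted p = 0.00644) and Ciapin1 at 4 weeks (0.79 ± 0.14, adjusted p = 0.0143).

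Of 25 heme genes, 6 were higher and 3 lower in KKAy at 11 weeks (median 0.30), and 3 higher and 1 lower at 4 weeks (median 0.15). Abcb10, a mitochondrial transporter needed for heme synthesis, was higher at 11 weeks (0.99 ± 0.10, adjusted p = 0.00173), and Tspo, an outer mitochondrial membrane protein that binds porphyrins, was lower (-0.75 ± 0.11, adjusted p = 0.00673). Cpox, an enzyme of heme synthesis, was higher at 4 weeks (0.69 ± 0.14, adjusted p = 0.0274), as was the heme and folate importer Slc46a1 (0.71 ± 0.16, adjusted p = 0.034), which was also higher at 11 weeks (1.01, adjusted p = 0.00804). Alas1, the rate-limiting enzyme of heme synthesis in liver, fell with age by 0.90 ± 0.10 in KKAy (adjusted p = 0.00345) and by 0.70 ± 0.10 in C57BL/6J (adjusted p = 0.0123). Hmox1, which frees iron from heme, was higher in KKAy by 0.66 at 11 weeks (adjusted p = 0.0071) and differed by -0.16 at 4 weeks (adjusted p = 0.414).

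With age, 18.5% of all genes were called in KKAy and 8.14% in C57BL/6J, and the same lists gave these counts. Regulators of hepcidin gave 5 higher and 3 lower of 27 in KKAy, and 2 higher and 0 lower in C57BL/6J. Acute phase and interleukin-6 genes gave 6 higher and 4 lower of 24 in KKAy, and 4 higher and 2 lower in C57BL/6J. Iron transport genes gave 2 higher and 4 lower of 20 in KKAy, and 1 higher and 2 lower in C57BL/6J. Few genes of the other lists moved in C57BL/6J: 0 of 14 for sensing and turnover, 0 of 22 for iron-sulphur clusters and 1 of 25 for heme, which was Alas1. In KKAy these lists had 2 of 14, 0 of 22 and 8 of 25 called, the last with 5 higher and 3 lower.

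**Figure D5:**
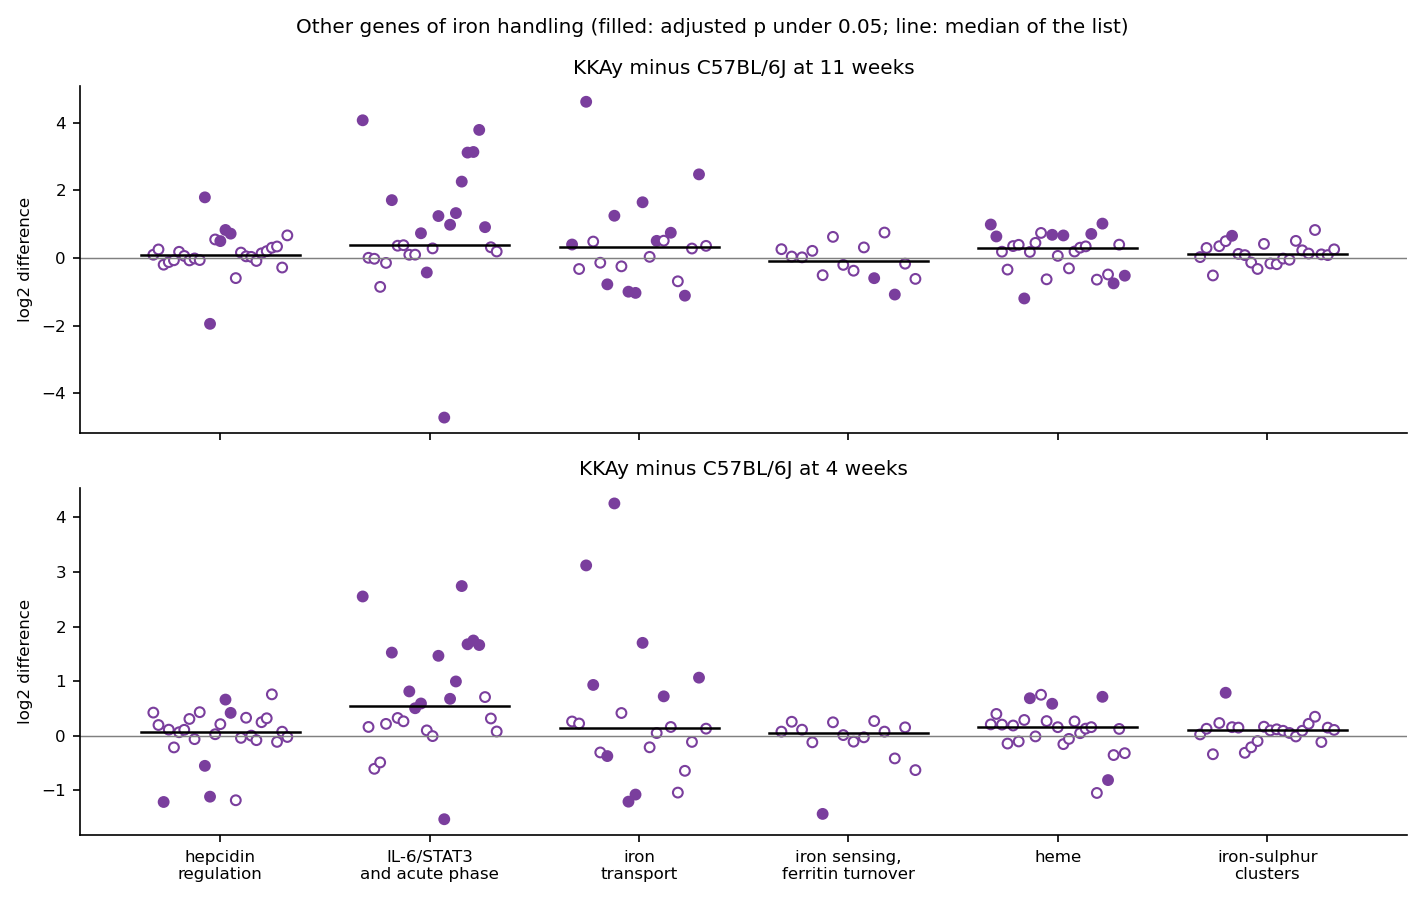
Log2 difference of KKAy minus C57BL/6J (vertical axis) at 11 weeks (top) and 4 weeks (bottom) for each tested gene of 6 lists, filled where the adjusted p is under 0.05, with a line at the median of the list. The acute phase list has the highest medians, 0.37 and 0.55, and the list of iron sensing and ferritin turnover lies near 0.

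The genes whose levels ran most like 3 of the 10 genes were found by Pearson r over the 8 arrays among 14411 other named genes, and are a description of arrays that fall in 4 groups and share normalization. Nearest to Hamp1 were Snx4 (r = 0.992), Gas2 (r = 0.991) and Sorbs2 (r = 0.990). Hamp2 ran most like Prkcq (r = 0.997), Hmgn2 (r = 0.996) and Neil3 (r = 0.995), and Tfrc most like Olfr1255 (r = 0.987), Cog1 (r = 0.986) and Gosr1 (r = 0.985).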

How the data were processed

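Total liver RNA of 8 samples in 4 groups of 2 was labelled with Cy3 and hybridised to Agilent one-colour arrays of 60-base probes. The authors read spot intensity with the program Agilent Feature Extraction (version 9.5.1.1), per the file headers and the submitters' processing notes, with background subtracted and no scaling between arrays. The deposited value table holds log2 values equal to the log2 processed signal minus 1 constant per array (within 0.001 for 100% of the values compared, medians -3.96 to -3.67) and served as an alternative; the sources used here do not name the tool that made it.

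Here flagged spots (59 to 89 per array) were left out, repeated spots averaged, and log2 processed signal taken relative to the 75th percentile of each array. Only probes that at least 1 group showed well above background on each of its arrays (25320) entered the fit, and the brightest probe stood for a gene (17050 genes, 14421 named). Names came from a RefSeq table of GRCm38.p6 by accession (24375 probes), symbol (6301) or older symbol (2426), and 8072 probes kept the name in the files. Means of the 4 groups were fitted over all arrays with limma 3.58.1 in R 4.3.3 (lmFit, eBayes, 4 residual degrees of freedom), with Benjamini-Hochberg adjustment over all genes. The fit was tested on simulated data with independent noise on each array, which does not cover the shared deviations of same-numbered arrays given below. For the second probes of Hfe and Bmp6 and the probe named for Ftl2, the same model was fitted to all 25320 probes, with adjustment over these. The number of arrays limits the precision, with median SDs between arrays of a group of 0.127 to 0.222.

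The 10 genes, the lists and the comparisons were chosen with earlier results of these data known. Named in the text are all 10 genes, for each pathway list the 2 genes of smallest adjusted p among those called in each strain and age comparison and 1 for the interaction, and examples of well-known list members, chosen after their values were seen. A gene that this rule names is not reported here. Alternatives were quantile normalization, the deposited table, normexp background correction with an offset of 50, no filter, probes above background on all arrays, spike-in scaling, the mean of all probes of a gene, only the 4 arrays of a comparison, the replicate number as a block, and leaving out each array in turn.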

Additional observations from a re-analysis of the deposited data

Results flagged for a closer look

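The strain difference itself changed between 4 and 11 weeks for the 8 genes flagged here, by the limma interaction term (adjusted p under 0.05). They are those of the 10 iron genes past that threshold and, from each pathway list with a call, the gene of smallest adjusted p. Among the 10 iron genes these were Tfrc (-1.72, adjusted p = 0.00911), Slc40a1 (1.12, adjusted p = 0.0254) and Hamp2 (0.78, adjusted p = 0.0379). From the pathway lists the flagged genes were Gdf15 (2.34, adjusted p = 0.00238), Scara5 (-3.01, adjusted p = 0.00342), Saa3 (2.12, adjusted p = 0.0175), Ncoa4 (-0.86, adjusted p = 0.0297) and Hmox1 (0.82, adjusted p = 0.0402). Also past the threshold in these lists, but not flagged, were Lepr (-3.18, adjusted p = 0.0223), Apcs (1.52, adjusted p = 0.0419) and Abcb10 (0.78, adjusted p = 0.0456). Of the other genes named above, Alas2 (1.46, adjusted p = 0.0292) and Cyp2b9 (-4.51, adjusted p = 0.00164) were among those past it. A positive value means that KKAy minus C57BL/6J was higher at 11 than at 4 weeks.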

How the results depend on the processing

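Of 20 calls among the 10 genes, 7 were made under every alternative run: Tfrc, Slc40a1, Hfe2 and Bmp6 between the strains at 11 weeks, Hamp2 with age in both strains and Tfrc with age in KKAy. Of 840 values under alternatives, 716 kept their side of the threshold, 20 of them with a turned sign of a difference that was not called, 98 lost the call, 25 gained one, and 1 was called with the opposite sign, Hfe at 11 weeks with the mean of its probes (-3.26), where the probe near background in KKAy enters the mean. Leaving out each array gave 4 genes called between the strains at 11 weeks, 1 to 3 at 4 weeks, 3 to 5 with age in KKAy, 1 with age in C57BL/6J and 0 to 1 for the interaction. Without a filter 2 genes were called between the strains at 4 weeks, 3 with age in KKAy, 1 with age in C57BL/6J and 1 for the interaction. With only the 4 arrays of a comparison 2 were called at 4 weeks, 2 with age in KKAy and 1 with age in C57BL/6J. Spike-in scaling gave 3 with age in KKAy, 1 with age in C57BL/6J and 1 for the interaction, and normexp correction 1 with age in C57BL/6J. Between the strains at 4 weeks spike-in scaling lost the calls of Hamp2, Hfe2 and Bmp6, so which genes were called there depended on the scaling. With the replicate number as a block 8 were called between the strains at 11 weeks, 7 at 4 weeks, 5 with age in C57BL/6J and 6 for the interaction, Hamp1 among the last (1.66, adjusted p = 0.00425). The block count with age in KKAy is not listed. For that comparison Tfr2, Fth1 and Hfe were each called in 1 of 17 alternatives, though not in the fit reported. Same-numbered arrays deviated together (r = 0.53 to 0.676 over genes between the 6 pairs of groups), but the labels do not say that a number pairs samples. Over the alternatives that keep every array of a comparison, the counts over all genes ranged from 2091 to 9400 between the strains at 11 weeks (3668 as reported), 1396 to 7502 at 4 weeks (2629), 739 to 9190 with age in KKAy (3160), 661 to 6068 with age in C57BL/6J (1387) and 142 to 5343 for the interaction (652). Leaving out each array gave 1478 to 3058, 1307 to 2577, 1315 to 2376, 432 to 1273 and 58 to 287 in the same order. Except where fewer arrays or other probes enter a fit, the cause of a change was not tested. The pathway list genes were recomputed only as list medians under spike-in scaling. The second Hfe probe is limited by signals near background and by its unknown match to the KKAy genome.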
